A study of Rattus norvegicus with 28 samples.

Results

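The genes described here make cholesterol, sense it, move it through the cell or export it. The 30 genes were chosen by name for these roles, with earlier results of these data known. The shares of all genes set beside their counts below are therefore descriptive. Each member had 1 row after the transcript with the highest mean TPM (a level per length, scaled to the same total in each library) was kept for every symbol. They are 30 of 17455 symbols in the table, and all 30 passed the filter on low values (an average of 1 TPM or more), as did 10275 genes in all. RNA-seq had been carried out on INS-1, an insulinoma line of the rat with features of pancreatic beta cells. The 28 libraries form 14 groups of 2. Of these groups, 7 are WT cells and 7 are cells with the Med14 S983A knock-in, which replaces a serine by alanine in Med14, the scaffold subunit of the Mediator complex. Each genotype has an untreated group (CON) and 6 treated groups, with exendin-4 (Ex-4, a peptide that activates the receptor of GLP-1) at 10 nM or 10 µM forskolin (FSK, an activator of adenylyl cyclase) for 1 h, 8 h or 16 h. All cells share the INS-1 background. The S983A change was made by CRISPR editing followed by sorting of single cells, so each S983A line is a clone and the substitution cannot be told apart from the clone. The study generated 2 such lines, and its methods say that every experiment was replicated with both. The labels do not say which line gave which of these libraries. The study also tagged the Mediator subunit Med19 in some lines, and whether the sequenced cells carry the tag is not given either. Treated cells were moved to serum-free medium before the agent was added, and the labels give no hour for CON. In the comparisons with CON, the hours without serum and the agent therefore cannot be told apart, whereas Ex-4 and FSK at the same hour share that time.

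Cholesterol is built from acetyl-CoA. The mevalonate enzymes produce farnesyl diphosphate, squalene synthase commits that intermediate to sterols, and a chain of enzymes in the endoplasmic reticulum turns lanosterol into cholesterol. SREBP-2, the product of Srebf2, is held in the endoplasmic reticulum by Scap and the Insig proteins while sterol is plentiful, and is released to activate most genes of the chain when sterol falls. LXR receptors respond to oxysterols and act in the opposite sense on export, through the transporters Abca1 and Abcg1. Beta cells need membrane cholesterol for insulin granules and for the channels that couple glucose to secretion.

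The libraries held 38175238 to 51335378 fragments in the genes kept, except replicate 2 of S983A at 8 h of FSK with 82873934. The ERCC spike-in, added per mass of total RNA, took 0.671% to 1.03% of fragments. Of 10 beta cell markers listed, 8 were in the table and all 8 had a mean over 1 TPM, with a summed level of 45420 to 85107 TPM. In WT CON the sum rests mostly on Ins1 (mean 34108 TPM), and in S983A CON on Ins1 (40615 TPM) and Ins2 together. Single markers differed between the CON groups, with mean levels of 2938 TPM in WT and 35068 TPM in S983A for Ins2 and of 6990 and 3270 TPM for Iapp. Among markers of other islet cells, Gcg ran from 6.09 to 1345 TPM and was lower in S983A (the alpha list summed to 165 to 1345 TPM in WT and 6.10 to 113 TPM in S983A). The delta, PP, acinar, fibroblast and endothelial lists each summed to under 1 TPM in every library, and the leukocyte list reached 1.75 TPM at most. The part of Gcg, Ins2 and Iapp in the values below was not tested. Med14 itself had 21.5 and 20.3 TPM in the WT CON libraries and 19.6 and 20.3 TPM in the S983A CON libraries (log2 difference -0.06 ± 0.07 SE, limma adjusted p = 0.404), a level that does not check a substitution of 1 residue. In bulk samples, fewer cells of a kind and less RNA per cell cannot be told apart.

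In WT CON cells the levels spanned more than 2 orders of magnitude. Fdps, which makes farnesyl diphosphate, was the most abundant member with 296 and 303 TPM. Msmo1 (128 and 126 TPM) and Sqle (124 and 122 TPM), which act on methylsterols and on squalene, followed, and their libraries did not overlap although their means lay close. Cyp51 (111 and 109.9 TPM) and the exporter Abcg1 (116 and 106 TPM) overlapped. Hsd17b7, which reduces the sterol ketone that Nsdhl leaves, was the lowest with 2.502 and 2.43 TPM, and Osbpl6, an oxysterol-binding protein relative, had 6.09 and 5.79 TPM. The members lie on 17 chromosomes in rn6. The only pair within 1000 kb of each other was Fdps (chr2:188403595-188413219) and Pmvk (chr2:188784329-188793885), 371 kb apart on chromosome 2, and these neighbours differed in level and in response, as described below.

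The promoters are shown because most of the synthesis genes were called in the same direction. A RefSeq window of 250 bases before and 50 bases after the annotated start (assembly GRCr8) was matched for 25 of the 30 members, and Pmvk, Fdft1, Sqle, Stard4 and Abcg1 had no entry. The NF-Y box, searched as CCAAT on both strands, was present in 18 of the 25 windows (72.0%) and in 37.5% of all 33469 windows of the same length. The members all averaged 1 TPM or more, whereas the 33469 windows were not filtered by level, so the 2 sets are unlike in this. The CRE core, TGACG on both strands, was present in 12 of the 25 (48.0%) and in 21.2% of all windows. The full CRE TGACGTCA, which contains the core, was in 0 of 25 and in 1.83% of all. Of the sterol elements, TCACCCCAC was in 0 of 25 (0.484% of all), TCACNCCAC in 0 of 25 (1.12% of all) and the E-box TCACGTGA in 1 of 25 (0.777% of all), that of Osbpl6, where it overlaps a CRE core. Neither an NF-Y box nor a CRE core was found in 5 windows, those of Acat2, Dhcr7, Scap, Npc1 and Abca1. A match is a description of letters and not a site, and no match says only that these letters are not in the window. The 5 windows below are those of Insig1, called higher at 1 h with both agents, of 3 enzymes with unlike time courses (Hmgcs1, Msmo1 and Tm7sf2) and of Abca1, the member with the largest fall in WT. Capitals mark CCAAT or its complement ATTGG and TGACG or its complement CGTCA, and each is written 5′ to 3′ on the strand of the gene.
Insig1, chr4:8057720-8058019, minus strand: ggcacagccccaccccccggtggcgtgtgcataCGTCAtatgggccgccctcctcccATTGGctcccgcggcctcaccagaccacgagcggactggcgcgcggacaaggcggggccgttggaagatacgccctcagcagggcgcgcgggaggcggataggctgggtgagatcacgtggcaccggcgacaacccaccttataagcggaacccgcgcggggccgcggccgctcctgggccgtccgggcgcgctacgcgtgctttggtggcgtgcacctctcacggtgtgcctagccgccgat
Hmgcs1, chr2:53382054-53382353, plus strand: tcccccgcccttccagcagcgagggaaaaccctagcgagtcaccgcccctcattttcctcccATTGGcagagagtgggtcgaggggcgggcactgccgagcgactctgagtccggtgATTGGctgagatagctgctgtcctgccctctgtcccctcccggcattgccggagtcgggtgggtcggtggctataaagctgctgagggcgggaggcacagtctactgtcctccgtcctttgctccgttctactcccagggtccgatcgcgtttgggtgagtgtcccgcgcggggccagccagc
Msmo1, chr16:29746863-29747162, plus strand: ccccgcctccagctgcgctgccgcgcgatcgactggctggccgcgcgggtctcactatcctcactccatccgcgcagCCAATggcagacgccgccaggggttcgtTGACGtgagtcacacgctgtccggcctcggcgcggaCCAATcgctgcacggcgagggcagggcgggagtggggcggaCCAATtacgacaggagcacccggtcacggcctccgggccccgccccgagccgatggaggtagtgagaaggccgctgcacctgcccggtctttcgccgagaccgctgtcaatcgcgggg
Tm7sf2, chr1:212789492-212789791, minus strand: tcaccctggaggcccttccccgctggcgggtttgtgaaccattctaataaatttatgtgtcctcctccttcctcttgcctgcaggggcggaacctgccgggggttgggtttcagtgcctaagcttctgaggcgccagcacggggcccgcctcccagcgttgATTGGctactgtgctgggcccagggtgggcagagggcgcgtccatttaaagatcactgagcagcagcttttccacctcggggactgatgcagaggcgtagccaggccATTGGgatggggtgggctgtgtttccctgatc
Abca1, chr5:72596424-72596723, minus strand: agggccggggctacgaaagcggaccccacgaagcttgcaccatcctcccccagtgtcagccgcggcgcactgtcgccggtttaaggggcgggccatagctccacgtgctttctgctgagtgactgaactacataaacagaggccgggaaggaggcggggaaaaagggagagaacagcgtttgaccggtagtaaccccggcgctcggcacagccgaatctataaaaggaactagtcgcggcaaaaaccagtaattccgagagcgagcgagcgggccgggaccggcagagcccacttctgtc

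The Insig1 window held a CRE core 217 bases and an NF-Y box 193 bases before the start, the 2 matches 24 bases apart. Hmgcs1 had a pair of NF-Y boxes at 188 and 133 bases before the start and no CRE core. Msmo1 had 3 NF-Y boxes, at 173, 109 and 68 bases before the start, with a CRE core between them at 145. Tm7sf2 had an NF-Y box 89 bases before the start and another 19 bases after it. Mvk and Nsdhl carried the most NF-Y boxes, 5 each.

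**Figure D1:**
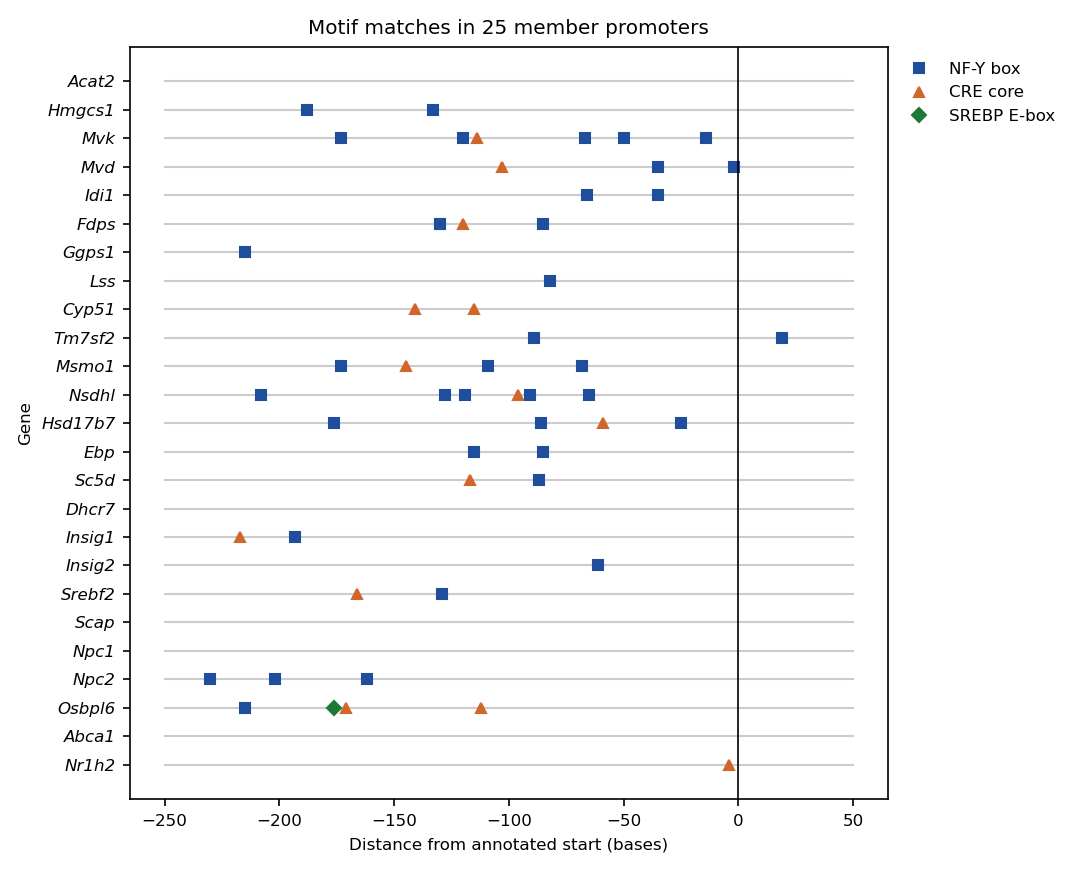
Positions of the NF-Y box, the CRE core and the SREBP E-box in the promoter windows of 25 members, as distance in bases from the annotated start (x axis), with 1 row per gene in order of role. Squares, triangles and the diamond mark the first base of each match, and the rows of Acat2, Dhcr7, Scap, Npc1 and Abca1 are empty.

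At 1 h of Ex-4, Insig1 was the member that rose in WT cells. A call required a fold above 1.5 and an adjusted p under 0.05 (limma on log2(TPM + 1), Benjamini-Hochberg over the 10275 genes of a comparison). All log2 differences below are on that scale, errors are SE from limma, with the spread of a gene estimated over all 28 libraries. The labels do not say that the 2 replicates of a group were separate cultures, although the study's methods speak of biological replicates, so p-values measure the spread between these libraries, which may be technical. At 1 h of Ex-4, 1 of 30 members was called higher and 0 lower, against 1.75% of all genes called higher and 115 of 10275 called lower. The member was Insig1, whose product retains SREBP-2 in the endoplasmic reticulum, with 67.7 and 67.9 TPM in CON and 102 and 109 TPM at 1 h. The groups did not overlap (log2 difference 0.63 ± 0.04, adjusted p = 2.28e-11), but without replicate 2 of WT Ex-4 at 1 h the value was 0.58 and the fold fell below 1.5. Stard4, which carries sterol between membranes, had 26.8 and 23.8 TPM in CON and 35.6 and 34.6 TPM at 1 h, and its difference of 0.46 did not reach the fold. The median difference of the 30 members was -0.05, beside -0.06 for all genes tested.

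At 8 h of Ex-4 in WT, 7 members were called higher and 1 lower, against 3.61% and 5.99% of all genes. The higher members were Insig1 (0.96), Msmo1 (0.96), Idi1 (0.95), Hmgcs1 (0.88), Cyp51 (0.75), Stard4 (0.66) and Osbpl6 (0.63). Abca1, which loads cholesterol onto lipid-poor apolipoprotein, fell from 50.4 and 46.1 to 22.99 and 20.1 TPM (-1.13). The call of Stard4 was lost without replicate 2 of WT CON (0.58) or replicate 1 of WT Ex-4 at 8 h (0.58). Osbpl6 stood above CON at this hour of the Ex-4 course, with 9.93 and 9.50 TPM at 8 h and 6.14 and 6.54 TPM at 16 h beside 6.09 and 5.79 TPM in CON.

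Most of the synthesis chain was higher after 16 h with Ex-4 than in CON in WT cells. In this comparison, 20 of 30 members were called higher and 2 lower, against 3.53% and 8.28% of all genes. The median difference of the members was 1.06, beside -0.16 for all genes. The summed level of the 19 synthesis enzymes went from 1294 and 1272 TPM in the CON libraries to 1758 and 1804 TPM at 8 h and 4176 and 4213 TPM at 16 h, a ratio of 3.27 to CON at 16 h, while the libraries at 1 h summed to 1285 and 1307 TPM. On the scale of the ERCC spike-in the median of all genes moved from -0.16 to 0.13 and the calls over all genes turned from 363 higher and 851 lower to 949 and 286, whereas 23 members were higher and 1 lower (9.24% and 2.78% of all genes), with a median of 1.37.

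Of the 8 genes from acetyl-CoA to the prenyl diphosphates, 6 rose at 16 h of Ex-4 in WT. Fdps went from 296 and 303 to 1252 and 1266 TPM, the largest change of this group (2.07 ± 0.03, a fold of 4.20, adjusted p = 3.88e-25). Idi1, which isomerises isopentenyl diphosphate, rose from 54.9 and 53.3 to 212 and 200.1 TPM (1.91). Hmgcs1, which makes HMG-CoA, rose from 80.8 and 78.6 to 298 and 297 TPM (1.89). All 3 had CON and treated libraries far apart. Acat2, the cytosolic thiolase that starts the chain, rose from 27.2 and 27.5 to 83.3 and 79.4 TPM (1.54). Mvd, which decarboxylates mevalonate diphosphate, rose from 42.4 and 39.4 to 88.5 and 89.1 TPM (1.10). Mvk, the kinase of mevalonate, rose least of the 6, from 47.7 and 45.0 to 77.9 and 80.00 TPM (0.76). Pmvk, the kinase of the next step and the neighbour of Fdps on chromosome 2, had 68.9 and 72.0 TPM in CON and 99.8 and 95.3 TPM at 16 h, without overlap, and its difference of 0.46 stayed under the fold, which it passed with median-centring, ERCC scaling, edgeR and DESeq2 (0.62 to 0.80). Ggps1, which makes geranylgeranyl diphosphate for protein prenylation and leaves the sterol branch, had 17.5 and 17.1 TPM in CON and 18.3 and 17.2 TPM at 16 h, which overlapped (0.04).

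All 11 genes from squalene to cholesterol rose at 16 h of Ex-4 in WT, by 0.86 to 2.40 on the log2 scale. Tm7sf2, a sterol reductase that acts on the product of Cyp51, had the largest change of all members, from 24.2 and 22.1 to 127 and 125 TPM (2.40 ± 0.05, a fold of 5.26, adjusted p = 3.06e-22). Msmo1, the methylsterol oxidase, rose from 128 and 126 to 610.3 and 619.8 TPM (2.26). Cyp51, the lanosterol demethylase, rose from 111 and 109.9 to 416 and 426 TPM (1.92). These 3 enzymes act on lanosterol and its first products. Hsd17b7 rose from 2.502 and 2.43 to 9.34 and 10.1 TPM (1.63). Fdft1, the squalene synthase, rose from 38.4 and 38.1 to 101 and 102 TPM (1.38). Sqle, the squalene epoxidase, rose from 124 and 122 to 317 and 327 TPM (1.38). On the log2(TPM + 1) scale those 3 lay close to the middle of the group. The added 1 TPM makes the value of Hsd17b7 smaller than its change in TPM, since its level is low. Nsdhl, the sterol dehydrogenase that acts with Msmo1, rose from 35.1 and 31.9 to 81.7 and 85.9 TPM (a fold of 2.46). Sc5d, a sterol desaturase, rose from 29.5 and 24.7 to 61.4 and 62.5 TPM (1.17). Lss, the lanosterol synthase, rose from 27.6 and 23.7 to 57.6 and 59.6 TPM (1.16). Dhcr7 and Ebp had the smallest changes. Dhcr7, which makes cholesterol from its immediate precursor in the Kandutsch-Russell branch, rose from 91.3 and 87.0 to 178 and 184 TPM (1.02), and Ebp, the sterol isomerase, from 46.8 and 48.4 to 87.2 and 86.9 TPM (0.86).

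Among the 4 sensing genes, limma on TPM called Insig1 at 16 h of Ex-4 in WT. Its level rose from 67.7 and 67.9 to 279 and 277 TPM (2.02 ± 0.04, adjusted p = 9.66e-22). Srebf2, which encodes SREBP-2, went from 98.5 and 93.7 to 138 and 146 TPM, and Insig2 from 23.7 and 22.1 to 33.4 and 34.3 TPM. Both sets of libraries were apart but the differences of 0.56 and 0.54 stayed under the fold. Both were called in other settings, Srebf2 at 0.75 with median-centring, 0.87 with ERCC scaling, 0.71 with edgeR and 0.90 with DESeq2, and Insig2 at 0.71 to 0.90 in the same settings. Scap, the escort of SREBP-2, had 34.0 and 31.8 TPM in CON and 26.05 and 27.2 TPM at 16 h (-0.30, not called). Of the genes that move sterol, Stard4 rose from 26.8 and 23.8 to 45.4 and 47.0 TPM (0.85 ± 0.09, adjusted p = 6.70e-09) and Npc2, which takes cholesterol out of lysosomes, rose from 49.8 and 49.2 to 87.5 and 84.0 TPM (0.78). Npc1, the lysosomal membrane partner of Npc2, had 32.3 and 30.2 TPM in CON and 28.1 and 29.6 TPM at 16 h (-0.11, not called). The exporters went the other way. Abca1 fell from 50.4 and 46.1 to 18.3 and 21.2 TPM (-1.25 ± 0.09, adjusted p = 8.32e-12), and Abcg1, which passes cholesterol to lipoproteins, fell from 116 and 106 to 60.7 and 63.9 TPM (-0.82, or -0.51 and no longer called with ERCC scaling). Nr1h2, which encodes the receptor LXR beta, had 53.6 and 50.6 TPM in CON and 47.9 and 47.6 TPM at 16 h (-0.12, not called).

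**Figure D2:**
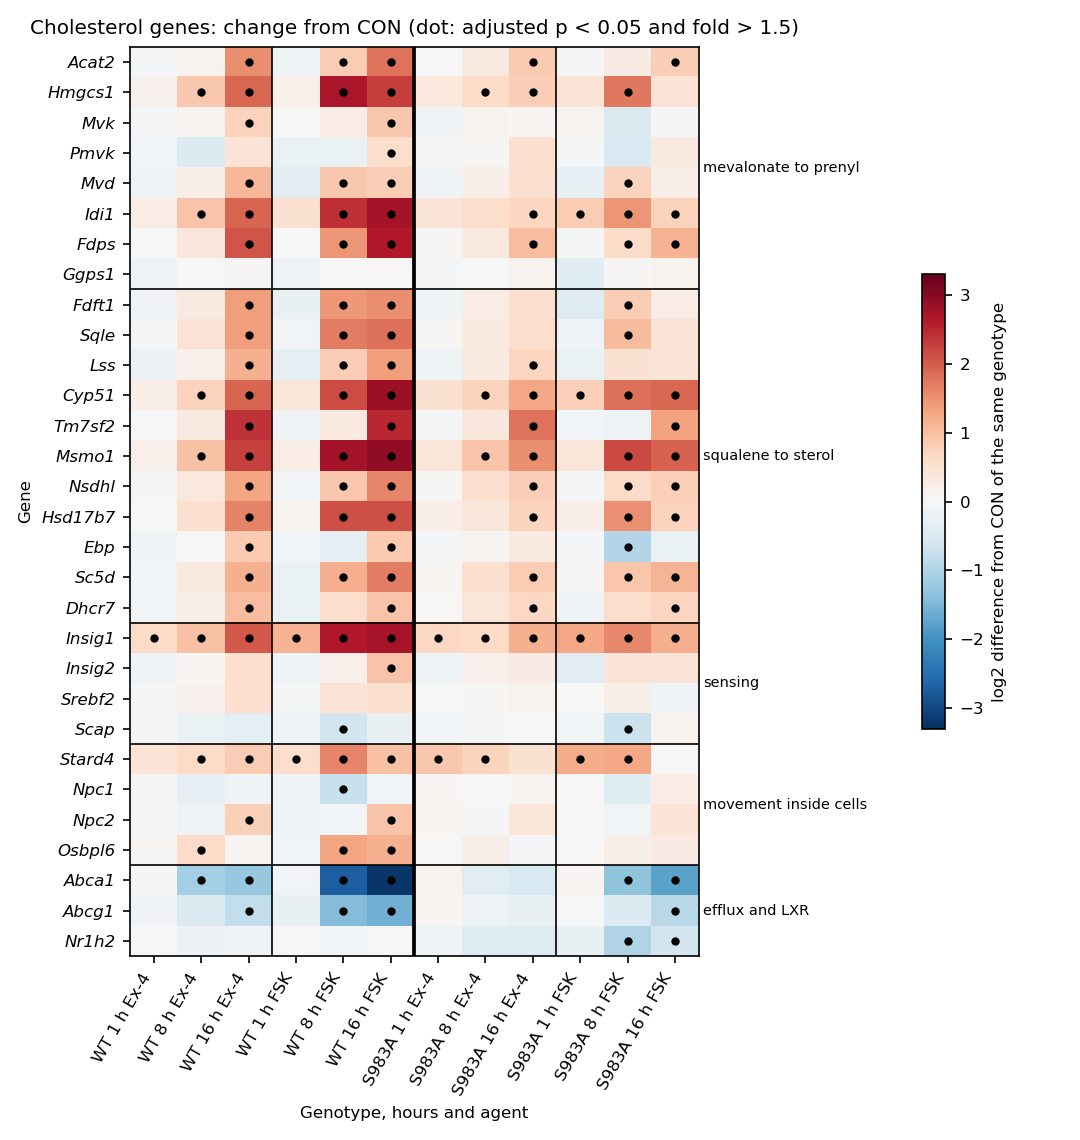
Log2 difference of each of the 30 members (rows, by role) from CON of the same genotype in the 12 treated groups (columns, by genotype, agent and hour), red for higher and blue for lower. A dot marks a call, and the columns of WT at 16 h hold 20 and 23 members called higher for Ex-4 and FSK, those of S983A 13 and 11.

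Under FSK, most synthesis genes of WT cells were already called at 8 h. At 1 h, 2 members were called higher and 0 lower, against 2.53% of all genes called higher and 508 of 10275 called lower. Insig1 reached 149.9 and 152 TPM from 67.7 and 67.9 TPM (1.14 ± 0.04, adjusted p = 3.91e-17), and Stard4 reached 39.7 and 37.2 TPM (0.59). The Stard4 call at 1 h did not hold without replicate 2 of WT CON (0.51) or replicate 1 of WT FSK at 1 h (0.54), which left Insig1 as the only call. At 8 h, 16 members were called higher and 4 lower, against 8.77% and 34.8% of all genes. The median of all genes stood at -0.34 at this hour and that of the members at 0.82. With each library centred on its median, 20 members were higher and 2 lower, against 18.8% and 18% of all genes. Msmo1 rose from 128 and 126 to 822 and 885 TPM (2.73). Hmgcs1 rose from 80.8 and 78.6 to 520.1 and 517 TPM (2.69), its highest level in any group. Insig1 rose to 421 and 443 TPM (2.66). The 3 were thus more than 6-fold above CON within 8 h.

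Other members stayed under the fold at 8 h on the TPM scale. Tm7sf2 had 29.7 and 28.9 TPM at 8 h of FSK (0.33, not called), beside 24.2 and 22.1 TPM in CON and 134 and 135 TPM at 16 h. Ebp was at -0.29, Mvk at 0.25, Pmvk at -0.22 and Npc2 at -0.10 on the log2 scale at 8 h, none of them called on that scale. With median-centring Tm7sf2 (0.72) and Mvk (0.64) were called at 8 h, Tm7sf2 with edgeR as well (0.67). The 4 members called lower at 8 h were Abca1 (-2.71), Abcg1 (-1.43), Npc1 (-0.72) and Scap (-0.62). The median of all genes lay on the same side, and with median-centring Npc1 and Scap stood at -0.33 and -0.23 and were no longer called. The Scap call was also lost without replicate 1 of WT CON (-0.58) or replicate 2 of WT FSK at 8 h (-0.58).

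After 16 h of FSK in WT, 23 members were called higher and 2 lower, against 10.3% and 24.1% of all genes, with a median of 1.08 for the members and -0.20 for all genes. All 11 genes from squalene to cholesterol were higher, as were 7 of 8 from acetyl-CoA to the prenyl diphosphates. The 19 enzymes summed to 4054 and 4197 TPM at 8 h and 5924 and 6031 TPM at 16 h, ratios of 3.22 and 4.66 to CON. Msmo1 was at 958 and 984 TPM (2.92 ± 0.05, a fold of 7.57, adjusted p = 1.79e-24) and Cyp51 at 776 and 804 TPM (2.83). Fdps stood at 1841 and 1874 TPM (2.63), the highest level of any member in any library. Ggps1 was the single enzyme that was not called (0.01). Pmvk only just passed the fold (0.59) and fell below it without replicate 1 of WT CON (0.56) or replicate 1 of WT FSK at 16 h (0.58). Insig2 (0.93), Npc2 (0.94), Stard4 (0.97) and Osbpl6 (1.18) were higher as well. Abca1 fell to 4.13 and 4.45 TPM from 50.4 and 46.1 TPM (-3.22 ± 0.09, adjusted p = 8.75e-21), and Abcg1 fell to 35.7 and 37.1 TPM (-1.58). Srebf2 had 138 and 138 TPM (0.52), under the fold.

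**Figure D3:**
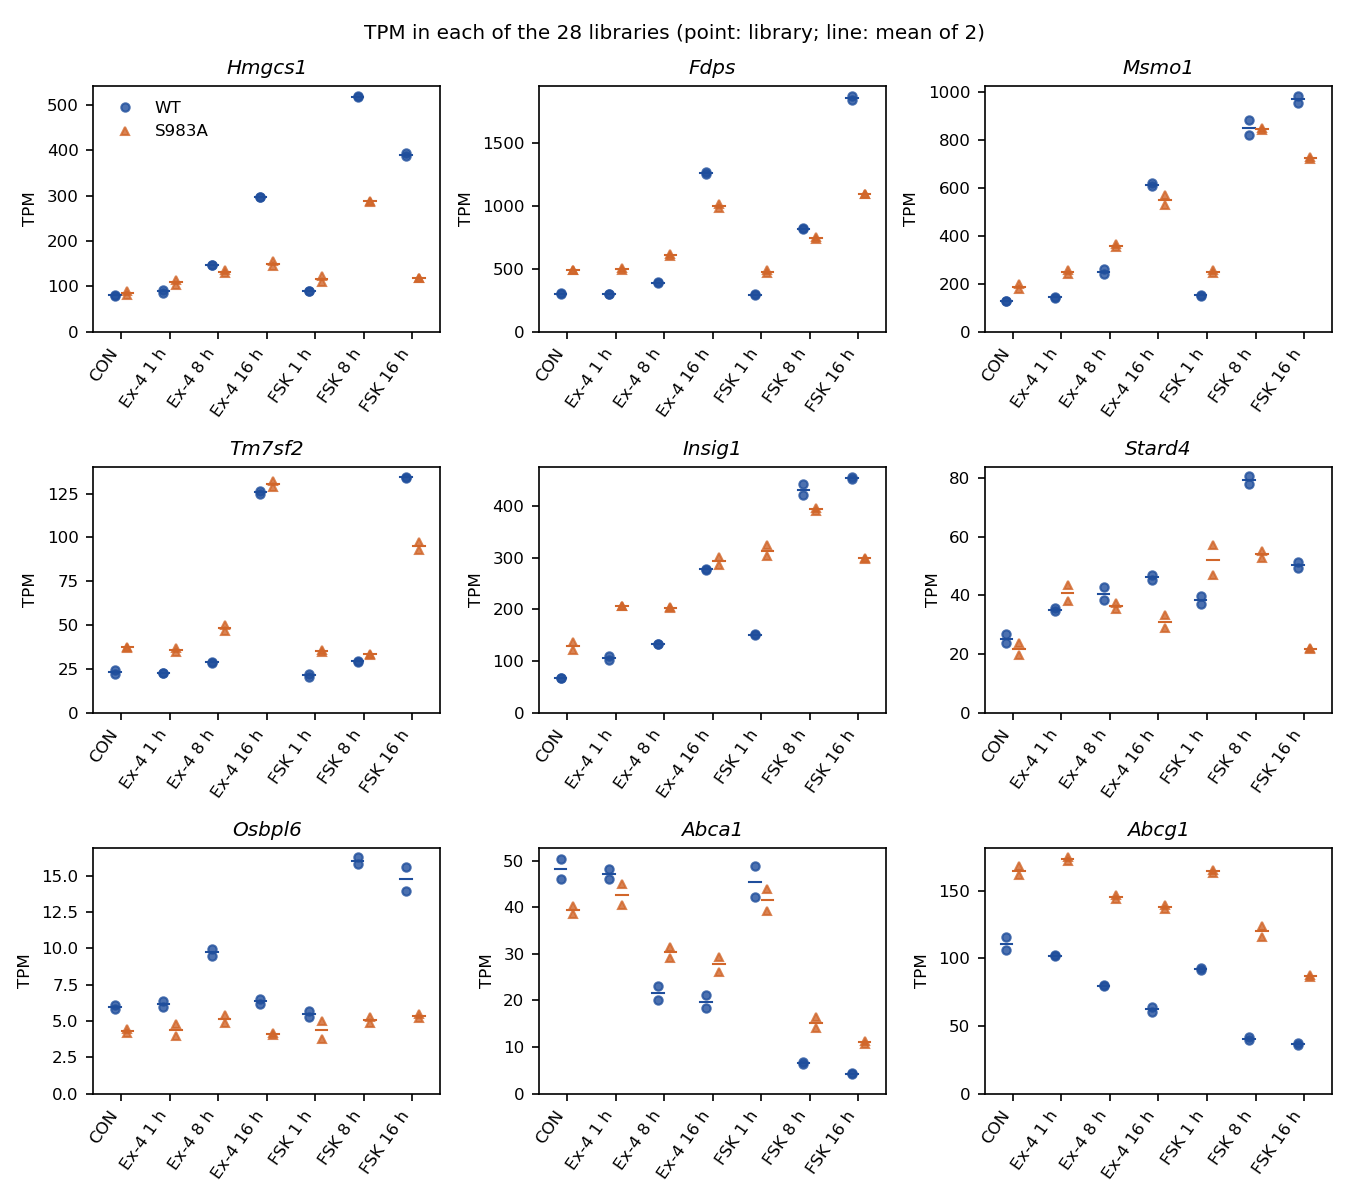
TPM of 9 members in each of the 28 libraries (y axes from 0), for CON and each agent and hour on the x axis, with WT as circles, S983A as triangles and a short line at the mean of 2. Hmgcs1 in S983A stood at 287 TPM at 8 h of FSK and 118 TPM at 16 h, Osbpl6 rose with FSK in WT and reached 5.48 TPM at most in S983A, and Abca1 and Abcg1 were lower in both genotypes at 16 h of FSK.

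The hours were then compared directly, a comparison chosen after the values had been seen. Between 8 h and 16 h of Ex-4 in WT, 20 members were called higher and 0 lower, with a median of 0.89. Of all genes, 2.08% were called higher and 359 of 10275 lower. Tm7sf2 (2.10), Fdps (1.69) and Acat2 (1.41) gained most in that interval. Between 8 h and 16 h of FSK in WT, 11 members were higher and 1 lower, against 14% and 3.62% of all genes, and with median-centring 7 were higher and 2 lower, against 8.57% and 5.92%. Tm7sf2 (2.16), Fdps (1.18), Ebp (1.17) and Npc2 (1.04) led the gains. Stard4 fell from 78.0 and 80.8 to 49.4 and 51.3 TPM (-0.65, or -0.28 and no longer called with ERCC scaling). Hmgcs1 went from 520.1 and 517 to 387 and 393 TPM, a difference of -0.41 that stayed under the fold.

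The 2 agents were compared at the same hour, so that the time in serum-free medium was matched. At 1 h in WT, Insig1 was lower under Ex-4 than under FSK, by a difference that stayed under the fold (-0.51). For that hour 0 members were called between Ex-4 and FSK (limma), against 1.79% of all genes in either direction, and 9 members had an unadjusted p under 0.05. DESeq2 and edgeR on recovered fragments called 0 as well. By 8 h, Ex-4 cells were lower than FSK cells for 15 members and higher for 2, against 4.77% and 23.3% of all genes. Hmgcs1 differed most among the enzymes, with 147 and 147 TPM under Ex-4 and 520.1 and 517 TPM under FSK (-1.81). Msmo1 (-1.77), Insig1 (-1.69), Hsd17b7 (-1.60) and Idi1 (-1.47) followed. The members higher under Ex-4 were Abca1 (1.58) and Abcg1 (0.96). Lss was the closest call (-0.63) and was lost without replicate 2 of WT Ex-4 at 8 h (-0.53) or replicate 1 of WT FSK at 8 h (-0.58).

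At 16 h in WT, Ex-4 was lower than FSK for 5 members and higher for 2, against 7.29% and 11.4% of all genes. The lower members were Osbpl6 (-1.10), Cyp51 (-0.91), Idi1 (-0.84), Insig1 (-0.71) and Msmo1 (-0.66), and the higher ones Abca1 (1.97) and Abcg1 (0.76). Tm7sf2 had 127 and 125 TPM under Ex-4 and 134 and 135 TPM under FSK (-0.09, not called).

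The same comparison was made in S983A cells. At 1 h, 1 member was lower under Ex-4, against 1.58% of all genes. It was Insig1, with 207 and 207 TPM under Ex-4 and 303 and 324 TPM under FSK (-0.59), and its call was lost without replicate 2 of S983A FSK at 1 h (-0.55) and with ERCC scaling (-0.40), while DESeq2 called Ggps1 higher under Ex-4 instead (0.59). At 8 h, 7 were lower and 5 higher under Ex-4, against 6.72% and 29.8% of all genes, and with median-centring 12 were lower and 2 higher, against 15.5% and 16.4%. Msmo1 (-1.24), Hsd17b7 (-1.13) and Hmgcs1 (-1.12) were the furthest below FSK, and Ebp (1.06) and Abca1 (0.95) the furthest above. At 16 h, 1 was lower, Cyp51 (-0.62, or -0.57 and not called without replicate 2 of S983A Ex-4 at 16 h), and 2 were higher, Abca1 (1.26) and Abcg1 (0.66), against 5.76% and 10.6% of all genes. These counts turned with the scaling, to 4 lower and 1 higher with ERCC scaling (19.8% and 5.16% of all genes) and 1 and 1 with median-centring (7.68% and 8.36%). Whether the agents differed by another amount in S983A than in WT was not tested.

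Before any treatment, S983A cells already had more transcript of Insig1 and of 3 synthesis genes. In S983A CON against WT CON, 4 of 30 members were called higher and 0 lower, against 8.29% and 11.1% of all genes. Insig1 had 67.7 and 67.9 TPM in WT and 137 and 122 TPM in S983A (0.92 ± 0.04, adjusted p = 1.09e-15). Fdps had 296 and 303 TPM in WT and 492 and 488 TPM in S983A (0.71 ± 0.03, adjusted p = 1.25e-16). Tm7sf2 had 24.2 and 22.1 and 37.0 and 37.6 TPM (0.67 ± 0.05, adjusted p = 6.90e-12). None of these 3 overlapped between the genotypes. Lss, the remaining call, had 27.6 and 23.7 TPM in WT and 40.5 and 40.4 TPM in S983A (0.64), and fell under the fold without replicate 2 of WT CON (0.54). Among transport genes the largest values were -0.44 ± 0.06 for Npc1 (adjusted p = 2.69e-07) and 0.57 ± 0.04 for Abcg1 (adjusted p = 1.17e-11), both under the fold. Abcg1 and Msmo1 (0.56) passed it with median-centring (0.66 and 0.65), ERCC scaling (0.77 and 0.76), edgeR (0.67 and 0.66) and DESeq2 (0.78 and 0.77). DESeq2 called 7 members higher and 0 lower, and there the median of all genes had moved to 0.14. ERCC scaling called 6 members higher and 0 lower, beside 1336 and 775 of 10275 genes. On the TPM scale the median of the members was 0.18, beside -0.07 for all genes, and with ERCC scaling 0.38 beside 0.12.

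Each member was also set beside up to 25 tested genes on either side of it in rn6 (50 in all, except 47 for Insig2, 41 for Npc1 and 25 for Insig1), as a description of its part of the chromosome. The median difference of those neighbours between the CON groups was within -0.16 and 0.04 for every member except Mvk. The neighbours of Mvk (chr12:47904266-47920457) had a median of -0.71, with 2 of 50 higher in S983A, while Mvk itself was at -0.20. Around the 4 called members the neighbours lay at -0.06 for Fdps, Tm7sf2, Lss and Insig1 alike.

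At 1 h, S983A cells had more Insig1 and Stard4 with either agent. Under Ex-4, 2 members were called higher and 0 lower, against 2.03% of all genes called higher and 103 of 10275 called lower. The members were Stard4, from 23.6 and 19.6 to 43.6 and 38.1 TPM (0.89), and Insig1, from 137 and 122 to 207 and 207 TPM (0.67). Under FSK, 4 were higher and 0 lower, against 3.19% of all genes called higher and 740 of 10275 called lower. The 4 were Insig1 (1.27), Stard4 (1.23), Idi1 (0.84) and Cyp51 (0.78). On the ERCC scale the median over all genes at 1 h of FSK moved from -0.11 to -0.30, 3 members were higher and 2 lower (2.59% and 14.6% of all genes), and Cyp51 (0.58) was no longer called.

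Msmo1, Cyp51, Insig1 and Hmgcs1 were called higher at both 8 h and 16 h of Ex-4 in S983A. At 8 h of Ex-4, 5 members were higher and 0 lower, against 3.21% of all genes called higher and 317 of 10275 called lower. These were Msmo1 (0.93), Stard4 (0.73), Cyp51 (0.72), Insig1 (0.65) and Hmgcs1 (0.63). The count fell to 3 without replicate 2 of S983A CON, where Insig1 stood at 0.57 and Hmgcs1 at 0.54. At 16 h of Ex-4, 13 were higher and 0 lower, against 4.73% of all genes called higher and 735 of 10275 called lower. The median was 0.53 for the members and -0.06 for all genes. Tm7sf2 rose from 37.0 and 37.6 to 132 and 129 TPM (1.78), Msmo1 from 199.9 and 177 to 571 and 529 TPM (1.54) and Cyp51 from 139.8 and 136 to 348 and 329 TPM (1.29). By role, 4 of 8 genes to the prenyl diphosphates, 8 of 11 from squalene to cholesterol and Insig1 were higher, and 0 of the genes for movement and export were called. The 19 enzymes summed to 1717 and 1647 TPM in S983A CON and 3327 and 3253 TPM at 16 h of Ex-4, a ratio of 1.96. Abca1 (-0.50) and Abcg1 (-0.26) were not called on the TPM scale. With ERCC scaling of this comparison with CON, 12 members were higher and 1 lower, beside 370 and 1065 of 10275 genes. The medians were then 0.41 for the members and -0.16 for all genes, and Dhcr7 (0.58) was no longer called. Between 8 h and 16 h of Ex-4, Tm7sf2 (1.42), Fdps (0.71) and Msmo1 (0.61) made up the 3 members called higher, with 0 lower. Of all genes, 1.25% were called higher and 279 of 10275 lower. Msmo1 was no longer called without replicate 1 of S983A Ex-4 at 16 h (0.56). That comparison too was chosen after the values had been seen, and it gave 5 members higher without replicate 2 of S983A Ex-4 at 16 h.

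Under FSK in S983A, Hmgcs1 was higher at 8 h than at 16 h and Tm7sf2 lower. On the TPM scale the summed level of the synthesis enzymes was alike at these hours. At 8 h, 13 members were called higher and 4 lower, against 11.6% and 34.5% of all genes, with a median of 0.47 for the members and -0.28 for all genes. Msmo1 went from 199.9 and 177 to 845 and 852 TPM (2.17) and Hmgcs1 from 90.1 and 79.9 to 286 and 288 TPM (1.75). Those lower at 8 h were Abca1 (-1.32), Nr1h2 (-0.99), Ebp (-0.96) and Scap (-0.71, or -0.37 and not called with median-centring). Nsdhl (0.63) was called higher but not without replicate 2 of S983A CON (0.54).

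For FSK at 16 h in S983A, 11 members were higher and 3 lower, against 12.2% and 21.1% of all genes, with a median of 0.42 for the members and -0.10 for all genes. With ERCC scaling 16 were higher and 2 lower, against 20% and 14.1% of all genes, with medians of 0.65 and 0.11. The 19 enzymes summed to 3545 and 3573 TPM at 8 h and 3569 and 3595 TPM at 16 h, ratios of 2.12 and 2.13 to S983A CON. These sums hold for the TPM scale. The ERCC spike-in took 0.807% and 0.909% of fragments at 8 h and 0.715% and 0.671% at 16 h. From 8 h to 16 h the median difference of the members was 0.07 in TPM and 0.36 with ERCC scaling. Msmo1 (1.94), Cyp51 (1.90), Tm7sf2 (1.33), Insig1 (1.20) and Fdps (1.16) were the furthest above CON. Abca1 (-1.75), Abcg1 (-0.92) and Nr1h2 (-0.61) were lower, the last of them not without replicate 2 of S983A CON (-0.52) or replicate 1 of S983A FSK at 16 h (-0.57).

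Set directly against 8 h, the 16 h FSK libraries of S983A were higher for 5 members and lower for 5, against 21.5% and 6.4% of all genes, again a comparison chosen after the values had been seen. Hmgcs1 fell from 286 and 288 to 118 and 117 TPM (-1.28 ± 0.05, adjusted p = 1.56e-16), and Stard4 from 55.3 and 52.7 to 21.7 and 21.98 TPM (-1.27), back to the 23.6 and 19.6 TPM of CON. Hsd17b7 (-0.74), Idi1 (-0.70) and Sqle (-0.62) were also lower. Tm7sf2 (1.49), Pmvk (0.83), Scap (0.83), Ebp (0.75) and Npc1 (0.65) were higher. The scaling shifts this comparison as a whole, since the median of all genes is 0.15 as deposited and 0.45 with ERCC scaling. There, 10 members were higher and 2 lower, against 39.9% and 2.5% of all genes, Hmgcs1 and Stard4 remaining lower while Idi1 (-0.37), Sqle (-0.30) and Hsd17b7 (-0.45) lost the call. With median-centring 3 were higher and 9 lower, against 13.7% and 11.6% of all genes.

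**Figure D4:**
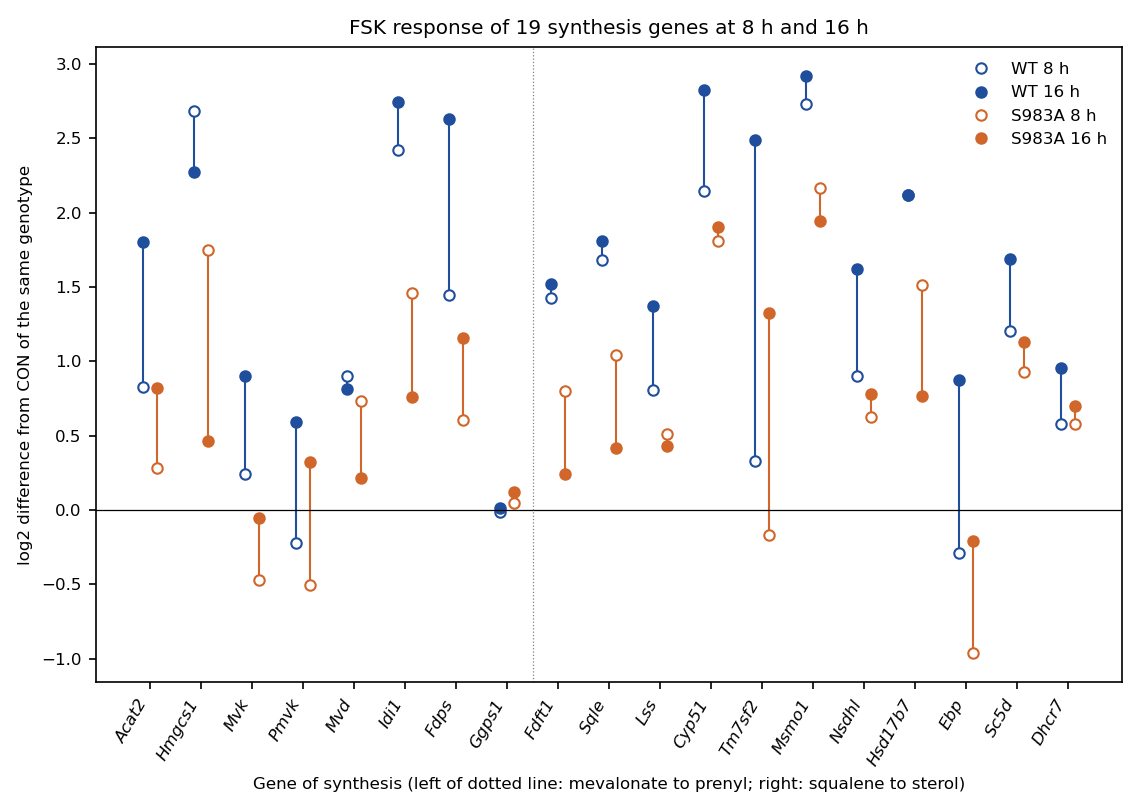
Log2 difference from CON of the same genotype for the 19 synthesis genes (x axis, in pathway order) at 8 h (open circles) and 16 h (filled circles) of FSK, with WT in blue and S983A in orange and a line from 8 h to 16 h. In S983A the filled circle of Hmgcs1 lies at 0.47, well under its open circle at 1.75, whereas in WT both lie above 2.2.

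Whether S983A cells respond to cAMP agents as WT cells do was tested with the interaction, the S983A difference from its CON minus the WT difference from its own. At 1 h of Ex-4, 0 members were called by limma, against 0.672% of all genes in either direction, and 8 had an unadjusted p under 0.05. DESeq2 and edgeR on recovered fragments called 0 as well. At 8 h of Ex-4, 1 member was higher, Abca1 (0.76 ± 0.12), against 1.98% of all genes. Abca1 had fallen from 50.4 and 46.1 to 22.99 and 20.1 TPM in WT and went from 40.4 and 38.6 to 31.5 and 29.1 TPM in S983A.

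At 16 h of Ex-4 the genotypes differed in their response of the synthesis genes. The S983A response was lower for 12 members and higher for 1, against 1.81% and 5.43% of all genes, with a median of -0.47 for the members and 0.09 for all genes. Idi1 rose from 54.9 and 53.3 to 212 and 200.1 TPM in WT and from 74.5 and 64.2 to 119 and 109 TPM in S983A (interaction -1.19 ± 0.08, adjusted p = 1.46e-11). Hmgcs1 rose to 298 and 297 TPM in WT and to 155 and 145 TPM in S983A from CON levels that overlapped (-1.07). Fdps, at -1.04, started from a higher CON level in S983A and ended lower, with 1252 and 1266 TPM in WT and 982 and 1015 TPM in S983A at 16 h. In the sterol steps Hsd17b7 had the largest interaction (-0.90 ± 0.13, adjusted p = 5.33e-06), with 9.34 and 10.1 TPM in WT and 6.16 and 5.93 TPM in S983A at 16 h. By role, the lower members were 5 of 8 genes to the prenyl diphosphates, 6 of 11 from squalene to cholesterol and Insig1. Acat2 went from 33.5 and 31.1 to 63.2 and 56.4 TPM in S983A (-0.67), below the WT rise given above. Fdft1 went from 44.0 and 42.9 to 62.6 and 62.8 TPM in S983A (-0.86) and Sqle from 162 and 147 to 233 and 226 TPM (-0.81). Msmo1 (-0.72), Cyp51 (-0.64) and Tm7sf2 (-0.61) were lower too, and Tm7sf2 was not called without replicate 2 of WT CON (-0.55). Tm7sf2 and Insig1 had nearby levels in both genotypes at 16 h, 127 and 125 against 132 and 129 TPM and 279 and 277 against 302 and 287 TPM, from CON levels that were higher in S983A.

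Mvk was not called in S983A (0.07). Its level was 40.8 and 39.9 TPM in CON and 43.1 and 41.6 TPM at 16 h of Ex-4, while WT went from 47.7 and 45.0 to 77.9 and 80.00 TPM (-0.69). Insig1 had the largest interaction of the sensing genes (-0.84 ± 0.06, adjusted p = 8.55e-11) and Npc2 of those that move sterol (-0.39 ± 0.07, adjusted p = 7.43e-05, not called for its size). Abca1 was the member with a higher S983A response (0.75 ± 0.12, adjusted p = 3.25e-05). Ggps1 (0.07) and Pmvk (0.07) were near 0. With ERCC scaling, on which the median of all genes moves to -0.32, 23 members were lower and 0 higher, against 15.6% and 1.34% of all genes, with a member median of -0.90, and Abca1 fell under the fold (0.33). Compared at 16 h of Ex-4 without regard to CON, S983A was lower than WT for 5 members and higher for 1, against 10.2% and 10.6% of all genes. With ERCC scaling 11 were lower and 1 higher, against 17.1% and 6.7%, and DESeq2 gave the same counts of members. The lower ones were Hmgcs1 (-0.98), Mvk (-0.88), Idi1 (-0.84), Fdft1 (-0.68) and Hsd17b7 (-0.60), and Abcg1 was higher (1.13). The Hsd17b7 call was lost without replicate 2 of WT Ex-4 at 16 h (-0.55) or replicate 2 of S983A Ex-4 at 16 h (-0.58).

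The interaction was computed for FSK in the same way. At 1 h, 1 member was higher in S983A, Stard4 (0.64), against 0.876% of all genes, and this call did not hold without replicate 1 of WT CON (0.56), replicate 2 of S983A CON (0.52) or replicate 2 of S983A FSK at 1 h (0.50), nor with ERCC scaling (0.39). At 8 h, 11 were lower and 2 higher, against 6.21% and 7.65% of all genes. Osbpl6 (-1.10), Insig1 (-1.06), Idi1 (-0.97) and Hmgcs1 (-0.94) were the lowest. Cyp51 (-0.34) and Msmo1 (-0.57) were not called, and Msmo1 had 822 and 885 TPM in WT and 845 and 852 TPM in S983A, which overlapped. The Sqle call (-0.64) was lost without replicate 2 of WT FSK at 8 h (-0.57) or replicate 1 of S983A CON (-0.58), and that of Hsd17b7 (-0.61) without replicate 2 of WT FSK at 8 h (-0.55) or of S983A FSK at 8 h (-0.55).

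For 16 h of FSK, 20 members had a lower S983A response and 2 a higher one, against 6.4% and 10.6% of all genes, with a median of -0.92 for the members and 0.08 for all genes. Idi1 went from 74.5 and 64.2 to 119 and 116 TPM in S983A where WT went from 54.9 and 53.3 to 356 and 381 TPM (-1.99 ± 0.08, adjusted p = 2.73e-16). Hmgcs1 (-1.81), Insig1 (-1.53), Fdps (-1.47), Sqle (-1.39) and Hsd17b7 (-1.35) came next. Fdft1, the entry to the sterol branch, was at 113 and 110.4 TPM in WT and 51.5 and 51.5 TPM in S983A (-1.28). Srebf2 was called here (-0.63), with 138 and 138 TPM in WT and 96.1 and 97.8 TPM in S983A, beside CON levels of 98.5 and 93.7 and 105 and 104 TPM. The members with a higher S983A response were Abca1 (1.46) and Abcg1 (0.66, or 0.51 and not called with ERCC scaling), whose fall was smaller in S983A. Mvd (-0.60) lay at the fold and was lost without any of 4 libraries, namely replicate 2 of WT CON (-0.55), replicate 1 of WT FSK at 16 h (-0.56), replicate 2 of S983A CON (-0.54) and replicate 2 of S983A FSK at 16 h (-0.58). Nr1h2 (-0.63) was lost without replicate 2 of S983A CON (-0.54). Dhcr7 (-0.25), Sc5d (-0.56), Insig2 (-0.51), Npc2 (-0.49) and Pmvk (-0.27) stayed under the fold. With median-centring, ERCC scaling, edgeR and DESeq2 alike, Sc5d (-0.65 to -0.71), Insig2 (-0.60 to -0.67) and Npc2 (-0.59 to -0.65) passed it.

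**Figure D5:**
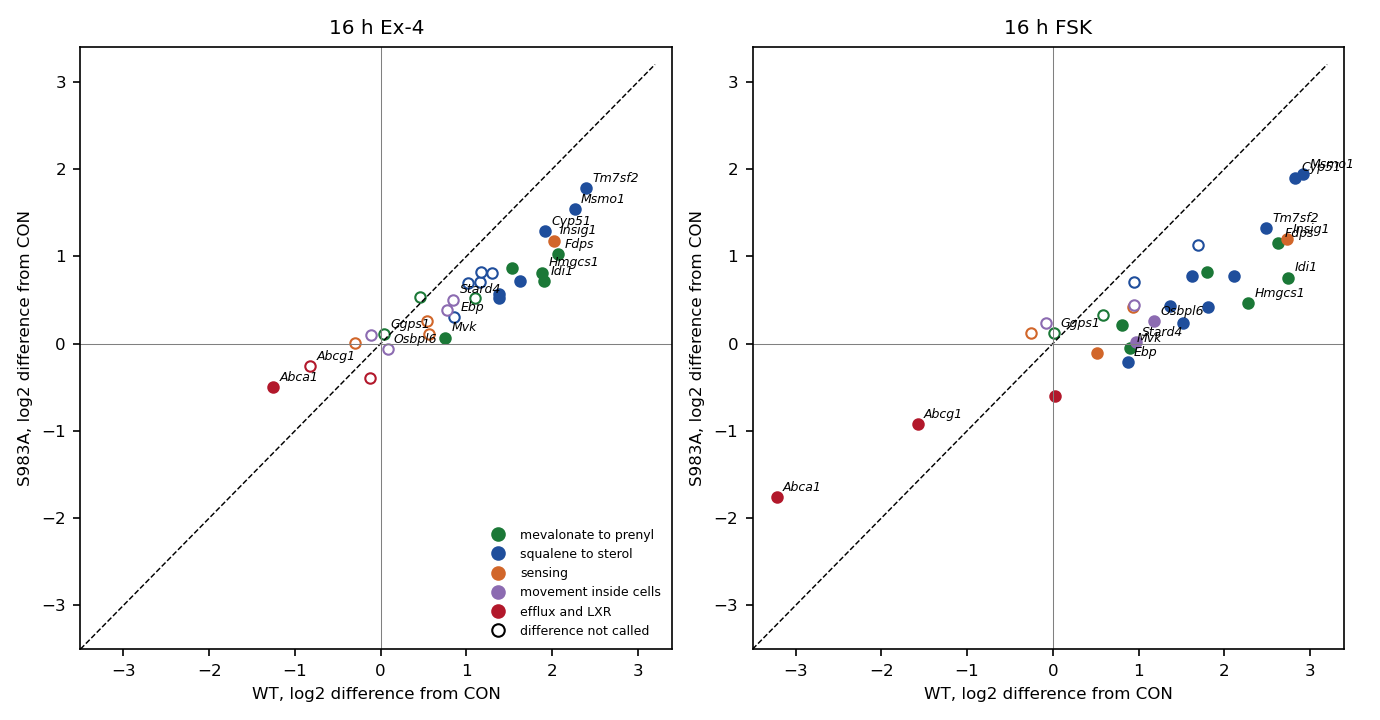
Log2 difference from CON in WT (x axis) and S983A (y axis) for the 30 members at 16 h of Ex-4 (left) and FSK (right), coloured by role, with the dashed line at equal responses. Filled points are members whose responses differed (adjusted p under 0.05 and fold above 1.5), 12 lower and 1 higher in S983A for Ex-4 and 20 lower and 2 higher for FSK.

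Osbpl6 had a course of its own. In WT its libraries held 6.09 and 5.79 TPM in CON, 16.3 and 15.8 TPM at 8 h of FSK and 13.9 and 15.6 TPM at 16 h. The S983A libraries held 4.41 and 4.19, 4.87 and 5.29 and 5.48 and 5.22 TPM in the same groups. The interaction was -1.10 at 8 h and -0.92 at 16 h, both called, and the S983A difference from CON reached neither call (0.20 and 0.26). Ggps1, in contrast, was called by limma in 0 of the 30 comparisons, with differences of at most 0.41 in size, and its libraries ranged from 11.9 to 18.96 TPM. With DESeq2 it was called at 1 h of FSK in S983A (-0.64) and in the comparison with Ex-4 at that hour, and with ERCC scaling in the former (-0.60).

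Other genes of the pathway were taken from a list of 54, of which 50 were in the table and 42 were tested. At 16 h of Ex-4 in WT, 4 of the 42 were called higher and 2 lower, beside 3.53% and 8.28% of all genes. In the 16 h Ex-4 interaction 1 was higher and 1 lower, beside 5.43% and 1.81% of all genes. Tmem97, a sterol-responsive membrane protein that binds Npc1, rose from 128 and 128 to 206 and 202 TPM at 16 h of Ex-4 (0.67), and its interaction of -0.04 was not called. Lima1, an actin-binding protein with a role in sterol uptake, fell from 53.1 and 50.1 to 25.7 and 28.6 TPM (-0.90). Mbtps2, the protease that makes the final cut in SREBP activation, had the higher interaction at 16 h of Ex-4 (0.66), with 13.6 and 13.4 and 11.3 and 11.1 TPM in WT and 10.4 and 9.69 and 14.01 and 13.3 TPM in S983A. In S983A CON against WT CON, 2 of the 42 were higher and 3 lower, beside 8.29% and 11.1% of all genes. Srebf1, the sister gene of Srebf2, was among the higher (1.63, 61.7 and 56.3 TPM in WT and 182 and 189 TPM in S983A), a gene singled out after its values were seen.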

How the data were processed

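The authors aligned paired reads from stranded libraries to rn6 and the ERCC sequences with STAR 2.5.3a and made the deposited TPM values over RefSeq exons with HOMER 4.11.1. The authors also deposited raw counts of reads per ERCC sequence, as counted by them without normalization. Exon lengths and the ERCC counts were used to recover fragments from the deposited TPM values. At 2 reads per fragment, 100% of 175533 values checked were whole numbers of reads, against 22.9% by chance. The tolerance was 0.05 reads plus the rounding of the TPM values. Recovered values were rounded to whole fragments for edgeR and DESeq2. Of 19223 lines, 92 were ERCC sequences and 1676 were further transcripts of a symbol, which left 17455 symbols.

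Differences were tested with limma 3.58.1 in R 4.3.3 on log2(TPM + 1) for the 10275 genes that averaged 1 TPM or more, as 14 group means with 14 residual degrees of freedom, with Benjamini-Hochberg adjustment over the genes of each comparison. The alternatives were a pseudocount of 0.1, no filter, median-centring, ERCC scaling, a replicate block, edgeR 4.0.16 on recovered fragments, DESeq2 1.42.0 on the same with ERCC size factors, and leaving out each library. The scripts were tested on simulated data. Since ERCC RNA was added per mass of total RNA, its scale is not one per cell. Replicates of every group differed by more than sampling noise (chi-square per degree of freedom 2.39 to 9.15).

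The members and lists were chosen with earlier results of these data known. Within each role, the member with the largest change got full statistics in 3 comparisons (Ex-4 for 16 h in WT, the CON groups, and the 16 h Ex-4 interaction), and members called in any of these got their libraries' values. The 4 comparisons of 16 h with 8 h were added after the values were seen. Some genes that this rule picked are not reported here. Promoter windows came from RefSeq (GRCr8), and coordinates of genes from the deposited table (rn6), with no conversion between builds. Strand was kept in library preparation, and whether the quantification used it is not given in the sources used here.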

Additional observations from a re-analysis of the deposited data

Results flagged for a closer look

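The response to an agent differed between S983A and WT cells for 50 pairs of a member and a comparison, by the interaction in limma (fold above 1.5, adjusted p under 0.05). Each value is the S983A difference from S983A CON minus the WT difference from WT CON, on the log2(TPM + 1) scale, and the groups hold 2 libraries each. The comparisons of 1 genotype share its CON libraries and are therefore not independent.

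At 8 h of Ex-4 the member was Abca1 (0.76). At 16 h of Ex-4 the S983A response was lower for Acat2 (-0.67), Hmgcs1 (-1.07), Mvk (-0.69), Idi1 (-1.19), Fdps (-1.04), Fdft1 (-0.86), Sqle (-0.81), Cyp51 (-0.64), Tm7sf2 (-0.61), Msmo1 (-0.72), Hsd17b7 (-0.90) and Insig1 (-0.84), and it was higher for Abca1 (0.75). At 1 h of FSK it was higher for Stard4 (0.64). At 8 h of FSK it was lower for Hmgcs1 (-0.94), Mvk (-0.72), Idi1 (-0.97), Fdps (-0.84), Fdft1 (-0.62), Sqle (-0.64), Hsd17b7 (-0.61), Ebp (-0.67), Insig1 (-1.06), Osbpl6 (-1.10) and Nr1h2 (-0.89), and higher for Abca1 (1.39) and Abcg1 (0.97). At 16 h of FSK it was lower for the mevalonate and prenyl enzymes Acat2 (-0.98), Hmgcs1 (-1.81), Mvk (-0.95), Mvd (-0.60), Idi1 (-1.99) and Fdps (-1.47). It was also lower for the sterol enzymes Fdft1 (-1.28), Sqle (-1.39), Lss (-0.94), Cyp51 (-0.93), Tm7sf2 (-1.16), Msmo1 (-0.98), Nsdhl (-0.84), Hsd17b7 (-1.35) and Ebp (-1.09), and for Insig1 (-1.53), Srebf2 (-0.63), Stard4 (-0.95), Osbpl6 (-0.92) and Nr1h2 (-0.63). The exporters Abca1 (1.46) and Abcg1 (0.66) had a higher S983A response at that hour.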

How the results depend on the processing

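Of 278 called member values, 0 changed sign under any alternative, and the 30 counts of called members moved as follows. Called values lost their call in 17 cases with DESeq2 and ERCC size factors, 12 with edgeR on recovered fragments, 20 with ERCC scaling, 15 with median-centring and 38 of 1312 with a library left out, and in 0 with a pseudocount of 0.1 or without the filter. ERCC scaling and DESeq2 gave, for the 16 h Ex-4 interaction, 23 and 24 members (13 as reported), for S983A against WT at 16 h of Ex-4, 12 and 12 (6 as reported), for Ex-4 against FSK at 16 h in S983A, 5 and 5 (3 as reported), and for the 1 h FSK interaction, 0 and 0 (1 as reported). ERCC scaling gave 0 for Ex-4 against FSK at 1 h in S983A (1 as reported), where DESeq2 gave 1 in the other direction, and DESeq2 gave 7 for S983A CON against WT CON (4 as reported). Median-centring and edgeR each gave 5 for 16 h against 8 h of Ex-4 in S983A (3 as reported). The cause was not tested. With 1 library left out, where the lone library of its group is assumed to vary like the other groups, the counts ran from 0 to 1 for WT at 1 h of Ex-4, 1 to 2 for WT at 1 h of FSK, 3 to 7 for S983A at 8 h of Ex-4, 0 to 1 for the 1 h FSK interaction, 0 to 1 for Ex-4 against FSK at 1 h in S983A, and 2 to 5 for 16 h against 8 h of Ex-4 in S983A. The other counts stayed within 1.5 times the reported value.

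The labels give every group replicates 1 and 2, but same-numbered libraries did not deviate together over the groups as a whole (correlations of -0.280 to 0.283 over 91 pairs of groups, median 0.0035). Of the pairs, 17 lay over 0.1 and 11 under -0.1, and whether some groups share a replicate effect was not tested. A replicate block left every call in place, for example 22 members at 16 h of Ex-4 in WT.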
